A study of Mus musculus with 30 samples.

Results

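RNA levels in cardiac myocytes of exercised mice with a deleted copy of Dsp were compared with those of wild-type mice kept at regular activity, both at 6 months of age. The comparison used 5 libraries of each group, 10 of the 30 in the series, and covered all genes of the deposited count table. The exercised mice had the genotype Myh6-Cre:DspW/F and are called heterozygotes here: Cre recombinase, driven by the cardiac myocyte promoter Myh6, acts on 1 floxed copy of Dsp. The series title describes this line as haplo-insufficient for desmoplakin and as a mouse model of arrhythmogenic cardiomyopathy. The exercise was endurance treadmill running, given in the labels as 3 months post exercise at an age of 6 months, so whether 3 months was the length of the training or the time since it cannot be told from the wording. Whether the wild types carry Cre, which sex the mice had, and whether the libraries of a group come from separate animals is not in the labels. The p-values therefore measure the spread between these libraries, which may in part be technical. The comparison asks how the heterozygous heart after training differed from an untrained wild-type heart. Genotype and exercise differ together in it, and the other 2 groups at 6 months, regular-activity heterozygotes and exercised wild types (5 libraries each), were used to place each difference.

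Desmosomes are the cell-to-cell junctions that anchor the intermediate filaments of neighbouring cardiac myocytes at the intercalated disc. Desmoplakin is the protein that ties the desmosomal cadherins and their armadillo partners to desmin filaments, and mutations in its gene are a known cause of arrhythmogenic cardiomyopathy, in which myocytes are lost and replaced by fibrous and fatty tissue. Endurance exercise loads these junctions mechanically and also drives physiological growth and a shift in fuel use of the normal heart.

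Total counts, in units of 1e+06, were 18.8 to 23.1 in regular-activity wild types and 13.2 to 18.1 in exercised heterozygotes. Transcripts of the mitochondrial genome took 15.6% ± 1.68 (SD, n = 5) of the counts in wild types and 29.4% ± 6.12 in exercised heterozygotes, ribosomal RNA 1.82% ± 0.488 and 5.12% ± 0.877, and small RNA 2.14% ± 0.203 and 1.14% ± 0.116. These 3 shares and the total counts did not overlap between the groups (2-sided exact permutation test p = 0.00794 each, the smallest that 5 against 5 allows, 0.0278 adjusted over 14 measures). The ribosomal RNA share includes the ribosomal RNAs of the mitochondrial genome, which the mitochondrial share also counts. Their rises are therefore not independent of each other. The table gives a value for 11 to 18 of 23 spike-in controls in the regular-activity libraries and for 0 in the exercised ones, so separate processing of the exercised libraries and exercise cannot be told apart. Ventricular myocyte markers averaged 11.1 ± 0.079 log2 CPM (counts per 1e+06 scaled counts) in wild types and 11 ± 0.155 in exercised heterozygotes, endothelial markers 5.29 ± 0.167 and 5.14 ± 0.473, fibroblast markers 3.60 ± 0.133 and 3.56 ± 0.909, and macrophage markers 0.86 ± 0.318 and 1.23 ± 1.04. Myocyte markers were thus high as labelled, with RNA of other heart cells present in both groups. Xist was high in wild types 2 and 5 and in exercised heterozygote 4 (129, 135 and 223 CPM, at most 0.899 in the other 7), and wild types 2 and 5 also had low Y-linked levels (2.24 and 2.66 CPM, against 0.0591 in exercised heterozygote 4).

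Of 15587 genes tested, 923 were higher and 1123 lower in exercised heterozygotes than in regular-activity wild types, 13.1% of the genes in all (5.92% higher and 7.2% lower, edgeR's quasi-likelihood test with Benjamini-Hochberg adjustment, adjusted p under 0.05). Protein-coding genes made up 1910 of these 2046. The median size of a called difference was 0.59 on the log2 scale, and 364 genes differed by more than 1 (196 higher, 168 lower). In 1440 of the 2046 the 5 exercised heterozygotes did not overlap the 5 wild types, which held for 12.2% of all genes tested. Each difference is the sum of a genotype part, which is the mean of the heterozygote-minus-wild-type differences in regular-activity and in exercised mice, and an exercise part, which is the mean of the exercised-minus-regular differences in wild types and in heterozygotes. Over all genes tested, 202 (1.3%) had a called genotype part and 3190 (20.5%) a called exercise part. The difference between both parts equals exercised wild type minus regular-activity heterozygote, 10 libraries that the comparison itself does not use, and this was called for 1729 genes (11.1%). By that test the exercise part was the larger one in 642 of the 2046 called genes (31.4%), the genotype part in 41 (2.0%), and neither in the remaining 1363 (66.6%). On counts simulated for exercised heterozygotes against regular-activity wild types, the test recovered 67.2% of 2-fold and 35.8% of 1.5-fold changes. The simulation changed few genes (67 of 15266 at each of these folds) and none at the lowest levels. Otherwise it gave all groups the same means, and it held no outlying library. These recovered shares may therefore not hold for the real comparison.

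**Figure D1:**
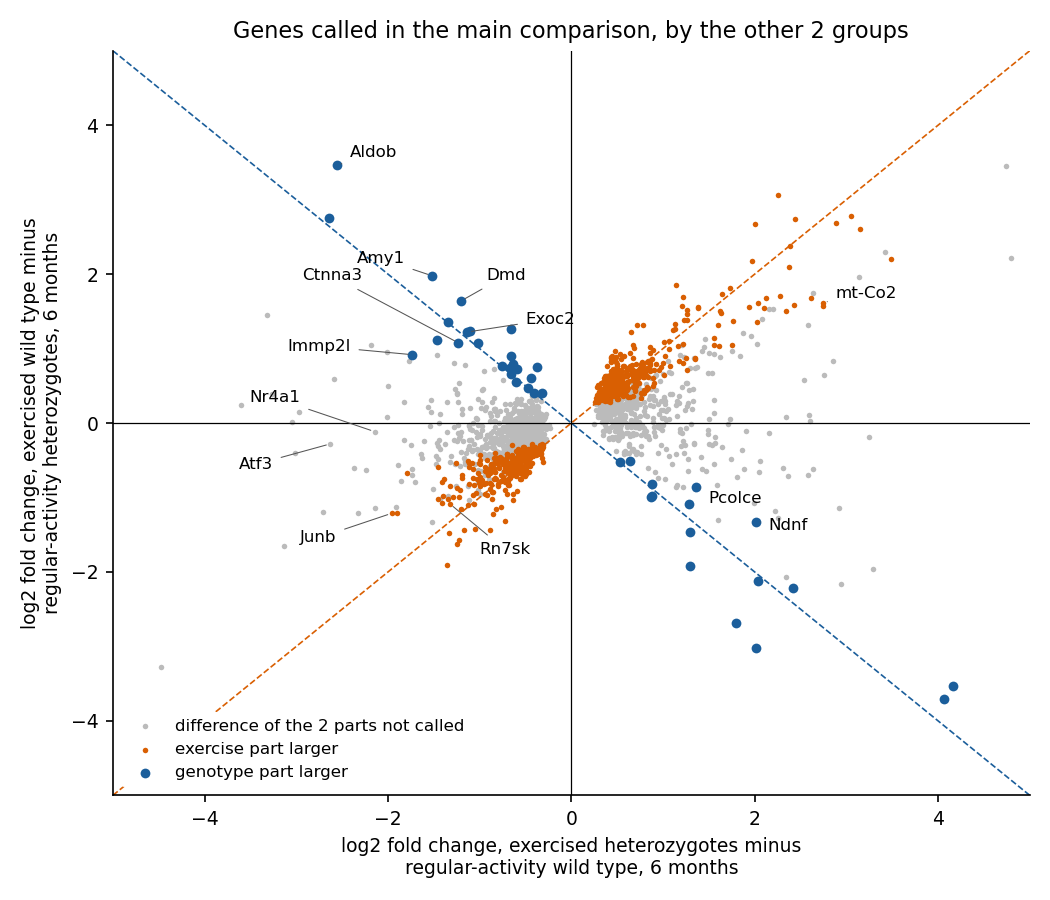
Each point is a gene called between exercised heterozygotes and regular-activity wild types, with that log2 fold change on the x axis and the log2 fold change of exercised wild types against regular-activity heterozygotes on the y axis (2 genes lie beyond 5 on an axis). A gene that differs by exercise alone lies on the rising dashed line and one that differs by genotype alone on the falling one: 642 orange genes have a larger exercise part, 41 blue genes a larger genotype part, and for 1363 grey genes the 2 parts did not differ past the threshold.

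Dsp itself (ENSMUSG00000054889, GRCm38 chromosome 13, 38151294 to 38198577) was not called. Its level was 683, 664, 636, 1021 and 916 CPM in wild types 1 to 5 and 939, 822, 869.5, 903 and 705 CPM in exercised heterozygotes 1 to 5. The groups overlapped, and all 5 exercised heterozygotes lay above wild types 1 to 3 and below wild type 4 (log2 fold change 0.11 with SE 0.191 and edgeR adjusted p = 0.777). This near-level value was the sum of opposite parts, a genotype part of -0.60 (edgeR adjusted p = 0.0177) and an exercise part of 0.72 (edgeR adjusted p = 0.000259): Dsp was 1312, 1907, 1778, 1881 and 928 CPM in exercised wild types and 620.4, 653, 593, 581 and 679.8 CPM in regular-activity heterozygotes. The count covers the whole gene, so reads of a recombined allele outside its deleted stretch are included.

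Among the 41 genes with the larger genotype part, 17 were higher and 24 lower in exercised heterozygotes, and 39 were protein-coding. The exercise part was called in 0 of the 41 (edgeR's quasi-likelihood test, at most 0.69 in size on the log2 scale, against 0.36 to 6.49 for the genotype part), and the difference of the genotype effect between exercised and regular mice was also called in 0 of them (0.0128% of all genes). The small exercise part follows largely from the rule that picked these genes, which asks for a larger genotype part. It is therefore no separate test of an exercise effect on them. The gene for dystrophin, Dmd, which links the actin cytoskeleton to the membrane at costameres and is itself a muscular dystrophy and cardiomyopathy gene, had the highest wild-type level of the genes here that fell more than 2-fold (ENSMUSG00000045103, chromosome X, 82948870 to 85206141). It was 342, 291, 298, 295 and 297 CPM in wild types 1 to 5 and 149, 109, 122, 109.9 and 173 CPM in exercised heterozygotes 1 to 5. Every exercised heterozygote lay below every wild type, and Dmd fell 2.30-fold (log2 fold change -1.20 with SE 0.190 and edgeR adjusted p = 7.93e-05). In regular-activity heterozygotes it was 152, 90, 128, 142 and 141 CPM and in exercised wild types 355, 481, 405, 409 and 391 CPM, so the 2 heterozygous groups overlapped each other and neither wild-type group.

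Ctnna3 (ENSMUSG00000060843, chromosome 10, 63430098 to 65003667), the gene for alpha-T-catenin, a partner of plakophilin in the hybrid junctions of the intercalated disc and an arrhythmogenic cardiomyopathy gene, fell to a like extent. Its level was 55.9, 63.9, 50.8, 47.6 and 55.5 CPM in wild types and 27.2, 21.8, 25.5, 11.6 and 30.6 CPM in exercised heterozygotes, with no overlap and exercised heterozygote 4 lowest (log2 fold change -1.23 with SE 0.175 and edgeR adjusted p = 1.38e-05). The exocyst gene Exoc2, whose product helps tether secretory vesicles, was 26.7, 27, 25.2, 30.3 and 23 CPM in wild types and 9.88, 10.6, 13.1, 10.3 and 16.3 CPM in exercised heterozygotes (log2 fold change -1.13 with SE 0.192 and edgeR adjusted p = 0.000131). Here too the groups stood apart, and the exercise part was 0.04. Immp2l, an inner membrane peptidase of mitochondria, was 9.15, 7.71, 5.69, 9.21 and 7.70 and 3.43, 2.63, 2.45, 1.12 and 2.29 CPM (log2 fold change -1.73 with SE 0.266 and edgeR adjusted p = 3.58e-05), a low level at which exercised heterozygote 4 again stood lowest. The amylase gene Amy1, which belongs to a family of related genes, and Dpyd, of pyrimidine breakdown, also fell without overlap (log2 fold changes -1.52 and -1.02, edgeR adjusted p = 0.00236 and 0.004). Genes of lipid metabolism among the 24 lower ones were the acyl-CoA thioesterase Acot7 (-0.59, 0.00441), Decr1 of unsaturated fatty acid oxidation (-0.47, 0.0309), Etfdh, which passes electrons from it to ubiquinone (-0.41, 0.0321), and Fdft1 of sterol synthesis (-0.60, 0.0245, all edgeR adjusted p). The last 3 were lowest in exercised heterozygote 4 and were not called without it (edgeR adjusted p = 0.0891, 0.104 and 0.0524). Without wild type 1 they were not called either, nor were Decr1 and Etfdh without wild type 4 or exercised heterozygote 2. In all, the call of Decr1 was lost in 6 alternatives with an adjusted p up to 0.129, that of Etfdh lost in 6 alternatives with an adjusted p up to 0.21 and that of Fdft1 lost in 7 alternatives with an adjusted p up to 0.173.

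Genes with a larger genotype part that were higher included Ndnf (ENSMUSG00000049001, chromosome 6, 65671590 to 65712326), a secreted factor first described in nerve and endothelium. It was 8.15, 9.20, 10.1, 4.63 and 10.4 CPM in wild types and 40.9, 36.1, 30.5, 27.6 and 36.7 CPM in exercised heterozygotes. The lowest exercised heterozygote had over 2 times the level of the highest wild type, and Ndnf rose 4.04-fold (log2 fold change 2.01 with SE 0.247 and edgeR adjusted p = 4.00e-06). Pcolce (ENSMUSG00000029718, chromosome 5, 137605103 to 137613784), which speeds the trimming of procollagen by its protease, was 18, 19.7, 20, 18.9 and 22.3 CPM and 39.3, 56.6, 50.2, 67.6 and 40 CPM. It too was without overlap, and rose 2.57-fold (log2 fold change 1.36 with SE 0.184 and edgeR adjusted p = 6.78e-06), while its level in exercised wild types was 34.3, 25.2, 22.8, 22.8 and 23.2 CPM. Irs4, an adaptor of the insulin receptor, had 0 counts in all 6-month wild types of either activity. Exercised heterozygotes had 74 counts in all, or 0.670, 0.830, 1.75, 1.18 and 0.665 CPM, at least 36.7-fold higher against a floor of 3 counts over the wild-type group (edgeR adjusted p = 0.000183). Dpysl3, of cytoskeletal remodelling, rose by 1.29 with some overlap (edgeR adjusted p = 0.00241), Jpt1 by 0.64 (edgeR adjusted p = 0.00364), and the protease inhibitor gene Timp1 by 1.80 (edgeR adjusted p = 0.0325, 0.163 without exercised heterozygote 4).

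**Figure D2:**
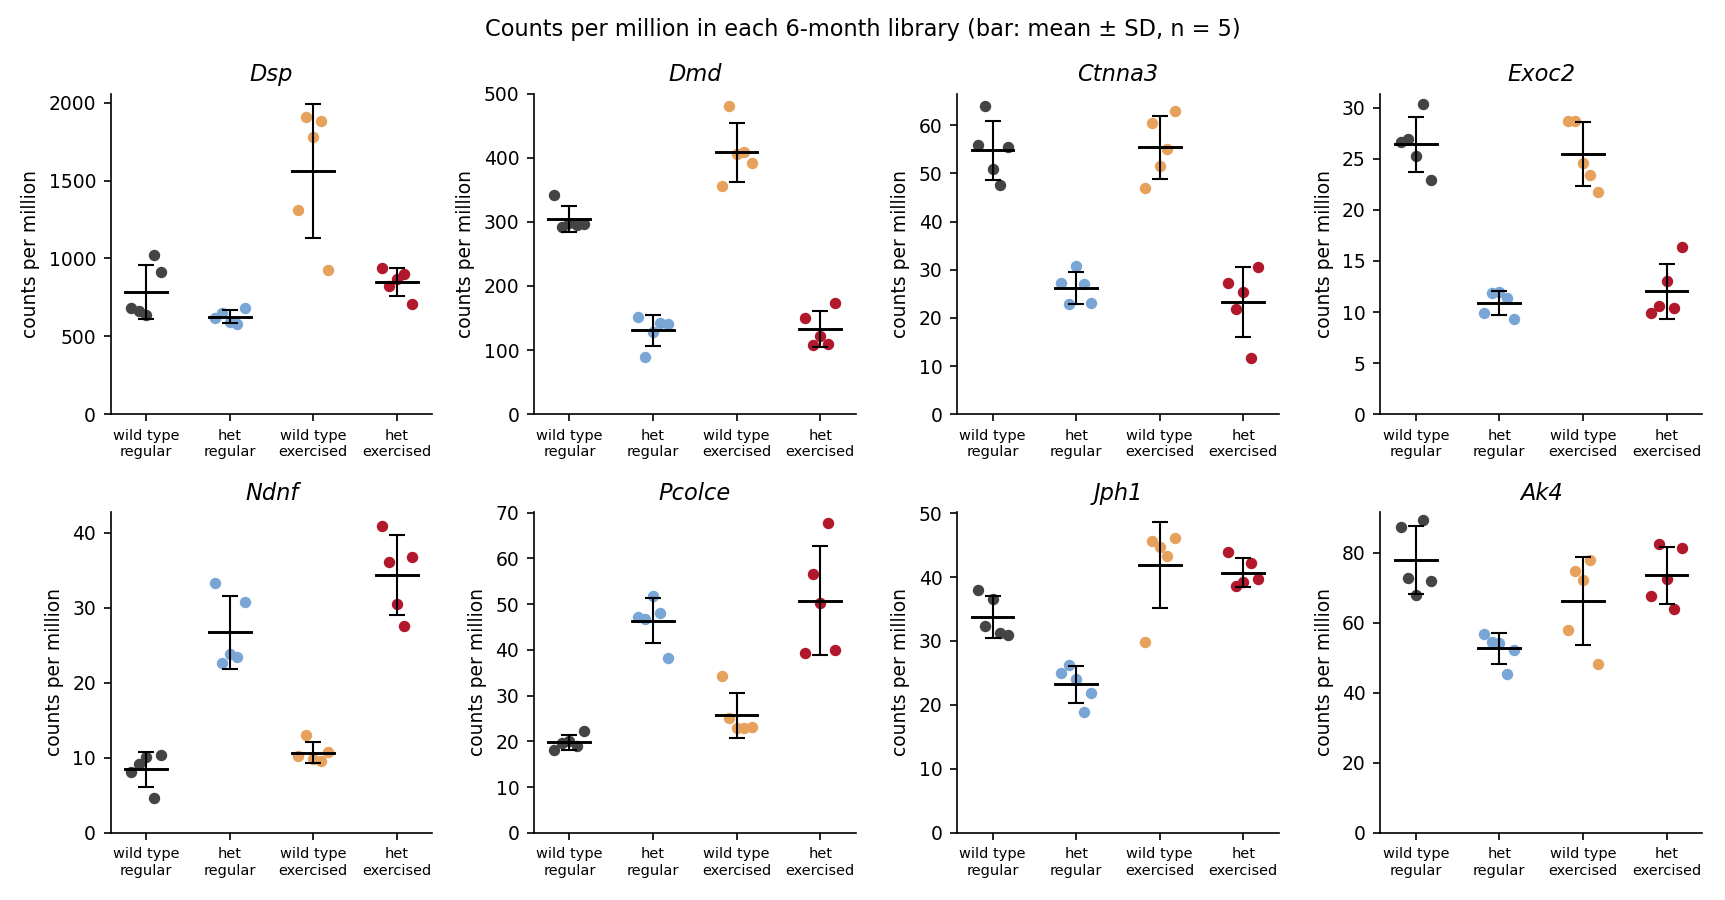
CPM on the y axis in each of the 20 libraries of 6-month mice, with points for libraries and bars for the mean ± SD (n = 5), in regular-activity wild types, regular-activity heterozygotes, exercised wild types and exercised heterozygotes. Dmd, Ctnna3 and Exoc2 are lower and Ndnf and Pcolce higher in both heterozygous groups, Jph1 and Ak4 are lower in every regular-activity heterozygote than in every regular-activity wild type and every exercised heterozygote, and mean Dsp is highest in exercised wild types.

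Very long genes were frequent among the lower genes with a larger genotype part. A gene span over 500 kb, a length chosen after the values were seen, was found for 6 of these 24 genes (25%): Dmd (2257 kb), Ctnna3 (1574 kb), Pard3b (1003 kb), Immp2l (931 kb), Dpyd (871 kb) and Ptprn2 (791 kb). The share was 0.898% of all genes tested (140 of 15587), 0.712% of all called lower genes (8 of 1123) and 1.30% of all called higher genes (12 of 923). Among the higher genes with a larger genotype part it was 5.88% (1 of 17). Of the 6, Ptprn2 stood on less firm ground, since wild type 5 had 21.2 CPM and the other wild types 0.547 to 2.95 (edgeR adjusted p = 0.0237, 0.413 without wild type 5), and Pard3b, of cell polarity (-0.37, edgeR adjusted p = 0.0483), had its call lost in 15 alternatives with an adjusted p up to 0.288.

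Genotype alone, in regular-activity mice, had 21 called genes (0.135%). That comparison shares its wild-type libraries with the one described here, so its genes are given side by side and not counted as an overlap. Beside those above, the leukotriene-forming lipoxygenase Alox5 had a log2 fold change of -1.87 in regular-activity heterozygotes and -2.0 in exercised heterozygotes, Apbb1, an adaptor of the amyloid precursor protein, -0.74 and -1.12, the reticulon Rtn2 -0.71 and -0.84, and Pdk1, a kinase that restrains pyruvate dehydrogenase, -0.58 and -0.46. In exercised heterozygotes their edgeR adjusted p was 0.000333, 5.68e-06, 0.000316 and 0.00646. For Apbb1 the genotype part was -0.44 and the exercise part -0.67, since exercised wild types were low as well (75.5, 87.2, 88.7, 81.9 and 87.9 CPM, against 139.6, 137, 129, 243 and 176 CPM in regular-activity wild types and 84.6, 72.5, 96.5, 52.8 and 73.6 CPM in exercised heterozygotes). Lman1l, a lectin related to a cargo receptor, had 2.49 and 2.36, Dcakd -0.83 and -0.66, and Prrg1 -0.91 and -0.66 (edgeR adjusted p = 0.00149, 0.00824 and 0.025 in exercised heterozygotes). The call of Prrg1 was lost in 7 alternatives with an adjusted p up to 0.432, and Dcakd was not called with GC and length trends removed (0.106).

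Jph1, Ak4, Sprr1a and the pseudogene-like entries Gm15487 and Rps2-ps6 (edgeR adjusted p = 0.628 and 0.373) were not called in exercised heterozygotes. Jph1 encodes junctophilin 1, which holds the sarcoplasmic reticulum to the surface membrane. It was 38, 32.3, 36.6, 31.2 and 30.9 CPM in wild types, 24.9, 26.2, 24.1, 18.9 and 21.8 CPM in regular-activity heterozygotes and 43.9, 38.6, 39.2, 42.3 and 39.7 CPM in exercised heterozygotes. All 5 exercised heterozygotes lay above every wild type, although the test did not call the difference (log2 fold change 0.27 with SE 0.118 and edgeR adjusted p = 0.139). Since Jph1 and Ak4 were picked for low values in the regular-activity heterozygotes, their higher values in the exercised ones are a description, with no test. Ak4, an adenylate kinase of the mitochondrial matrix, was 87.5, 72.9, 67.9, 89.5 and 72, 56.9, 54.6, 54.3, 45.4 and 52.1 and 67.7, 82.4, 72.4, 63.9 and 81.4 CPM in the same 3 groups. Its exercised heterozygotes overlapped wild type (log2 fold change -0.08 with SE 0.123 and edgeR adjusted p = 0.738). Sprr1a, a stress-induced cornified-envelope gene, had 8.0, 0.531, 1.28, 0.723 and 4.85 CPM in regular-activity heterozygotes, 0.921, 0.968, 0.420, 0.828 and 0.295 CPM in exercised ones and at most 0.356 CPM in wild types (log2 fold change 2.04, edgeR adjusted p = 0.11). At these few reads its state after exercise was not resolved.

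The genotype comparison at 3 months, which shares no library with this one, had 30 called genes (0.192%), of which 14 were protein-coding. Of the 30, 4 were called in exercised heterozygotes at 6 months, all in the same direction. That is 13.3%, near the 13.1% of all genes. They were Ndnf, Abi2, an adaptor of the actin-branching WAVE complex (0.67, edgeR adjusted p = 0.000109), Mettl26 (-0.54, 0.0116) and the RNA-binding coactivator Rbm14 (-0.42, 0.0293). Abi2 was 18.4, 17.5, 16.4, 17.1 and 18.4 CPM in wild types and 21.6, 27.1, 28.3, 33 and 29.2 CPM in exercised heterozygotes, without overlap. Rbm14 overlapped between groups and its call was lost in 10 alternatives with an adjusted p up to 0.199, and that of Mettl26 was lost in 3 alternatives with an adjusted p up to 0.237.

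Immediate early genes, the transcription factors and phosphatases that cells switch on within minutes of stretch, growth factors, calcium entry or tissue dissociation, were lower in exercised heterozygotes. Of 28 listed and tested genes, 16 were lower and 0 higher in exercised heterozygotes, 57.1% against the 13.1% of all genes, with a median log2 fold change of -1.12 (all genes 0.01). With the scaling used here, all 28 values were below 0, that of Myc by less than 0.01. Fos, a subunit of the AP-1 factor, was 407, 626, 393, 295 and 600.1 CPM in wild types and 102, 124, 91.6, 128 and 179.5 CPM in exercised heterozygotes (log2 fold change -1.89 with SE 0.337 and edgeR adjusted p = 0.000458). The highest exercised heterozygote was below the lowest wild type. Nr4a1, an orphan nuclear receptor, was 276, 165, 160.5, 134 and 93.2 CPM and 41.3, 24.3, 36.8, 46 and 38.8 CPM, also without overlap (log2 fold change -2.14 with SE 0.285 and edgeR adjusted p = 1.43e-05). The stress factor Atf3 fell further, from 167, 219, 159.5, 99.4 and 162 CPM to 22.9, 24.3, 30.9, 17.3 and 35.2 CPM (log2 fold change -2.63 with SE 0.348 and edgeR adjusted p = 1.53e-05). Junb, another AP-1 subunit, had the smallest p of the list and was 216, 305, 228, 178 and 246 CPM in wild types and 63, 62.5, 72.9, 46.1 and 57 CPM in exercised heterozygotes (log2 fold change -1.96 with SE 0.180 and edgeR adjusted p = 2.24e-08).

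The members differed in how the fall divided between genotype and exercise. For Junb the exercise part was -1.59 and the genotype part -0.37, and the exercise part was the larger by the test on the other 2 groups. Nr4a1 had a genotype part of -1.01 (edgeR adjusted p = 0.00625) and an exercise part of -1.13, and Atf3 had -1.17 (edgeR adjusted p = 0.00928) and -1.45, with neither part larger. In regular-activity heterozygotes Nr4a1 was 113, 63.7, 101, 67.6 and 82.2 CPM and in exercised wild types 39.8, 77, 82.2, 73.6 and 122 CPM, both between the group means of the 2 groups compared. Dusp1, which dephosphorylates MAP kinases, was 396, 431, 383, 314 and 431 CPM in wild types and 130.4, 129, 183, 116 and 207 CPM in exercised heterozygotes (log2 fold change -1.35 with SE 0.178 and edgeR adjusted p = 5.95e-06). Ier5 and Gadd45g, a stress-response gene outside the list, fell with log2 fold changes of -1.79 and -1.90 (edgeR adjusted p = 4.40e-06 and 2.88e-06). Egr1 (-1.11, edgeR adjusted p = 0.0137) was not called without wild types 2 and 5 (0.182), and Jund (-0.67, 0.00246) was not called when trends on GC content and length were removed (0.748). The spike-in controls separate the same libraries as the exercise part does, so for this list too exercise and a separate library set cannot be told apart.

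The promoters of 3 of these genes are shown because these genes fell together and are textbook targets of CREB, the factor that answers cAMP and calcium signals. They held the most CREB core motifs of the 5 promoters read. Each runs over the 250 bases before the gene start in RefSeq (build GRCm38.p6), printed in the direction of the gene, with capitals for the core TGACG or its other-strand form CGTCA. They lie at chr15:101266596-101266845 on the plus strand, chr12:85473640-85473889 on the plus strand and chr17:26508473-26508722 on the minus strand.
Nr4a1: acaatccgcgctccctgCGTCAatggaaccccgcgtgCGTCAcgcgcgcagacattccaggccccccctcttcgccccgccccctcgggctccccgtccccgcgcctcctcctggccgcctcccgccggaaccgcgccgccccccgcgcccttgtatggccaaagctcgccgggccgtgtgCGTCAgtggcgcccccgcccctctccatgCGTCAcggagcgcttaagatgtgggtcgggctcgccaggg
Fos: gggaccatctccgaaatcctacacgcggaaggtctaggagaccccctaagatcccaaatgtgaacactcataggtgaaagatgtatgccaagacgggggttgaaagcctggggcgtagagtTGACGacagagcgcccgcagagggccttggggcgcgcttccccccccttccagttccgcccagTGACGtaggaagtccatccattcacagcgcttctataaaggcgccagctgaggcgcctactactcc
Dusp1: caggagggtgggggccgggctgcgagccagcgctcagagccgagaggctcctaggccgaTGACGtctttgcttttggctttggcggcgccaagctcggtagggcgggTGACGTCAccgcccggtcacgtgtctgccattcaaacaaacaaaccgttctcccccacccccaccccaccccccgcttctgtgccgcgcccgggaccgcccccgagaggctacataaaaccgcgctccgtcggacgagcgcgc
Nr4a1 holds 4 such cores, Fos 2, and Dusp1 3, of which 2 overlap in the full palindrome TGACGTCA. The promoters of Atf3 and Junb, which are not printed, hold 1 each. Of the 28 listed genes, 21 had a promoter in the table, and 12 of these held at least 1 core (57.1%), against 2838 of all 10657 tested genes with a promoter (26.6%). Among the 14 called lower it was 10 (71.4%), and among the 7 not called 2 (28.6%). The full palindrome was present in 2 of the 21 and in 286 of the 10657 (2.68%). A match of letters does not show binding, and the list was not chosen independently of what is known of these genes. The promoters compared were not matched for base composition, and whether CREB had a part in the fall was not tested.

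Heat shock chaperones, which refold proteins under stress, were split. Of 25 genes, 1 was higher and 5 lower (24% against 13.1%), and the median was -0.06. Hspa1a, the inducible Hsp70, was 25.7, 22, 33.3, 28.7 and 28.5 CPM in wild types and 5.02, 3.66, 9.72, 10.3 and 9.38 CPM in exercised heterozygotes, without overlap (log2 fold change -1.85 with SE 0.386 and edgeR adjusted p = 0.00196). Its near-identical neighbour Hspa1b, which can share reads with it, and their co-chaperone Dnajb1 fell as well (log2 fold changes -1.64 and -1.63, edgeR adjusted p = 0.00543 and 0.000409). The small heat shock genes went both ways: Hspb1 (-0.92) and Hspb8 (-0.47) fell, and Hspb7, which guards sarcomeric filaments, rose by 0.72 (edgeR adjusted p = 6.20e-06, 0.0129 and 0.00098). The call of Hspb8 was lost in 2 alternatives with an adjusted p up to 0.387. Fos, Hspa1a, Hspa1b and Dnajb1 were not called when the mitochondrial share of each library was added to the fit (edgeR adjusted p = 0.0886, 0.0908, 0.111 and 0.0969).

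**Figure D3:**
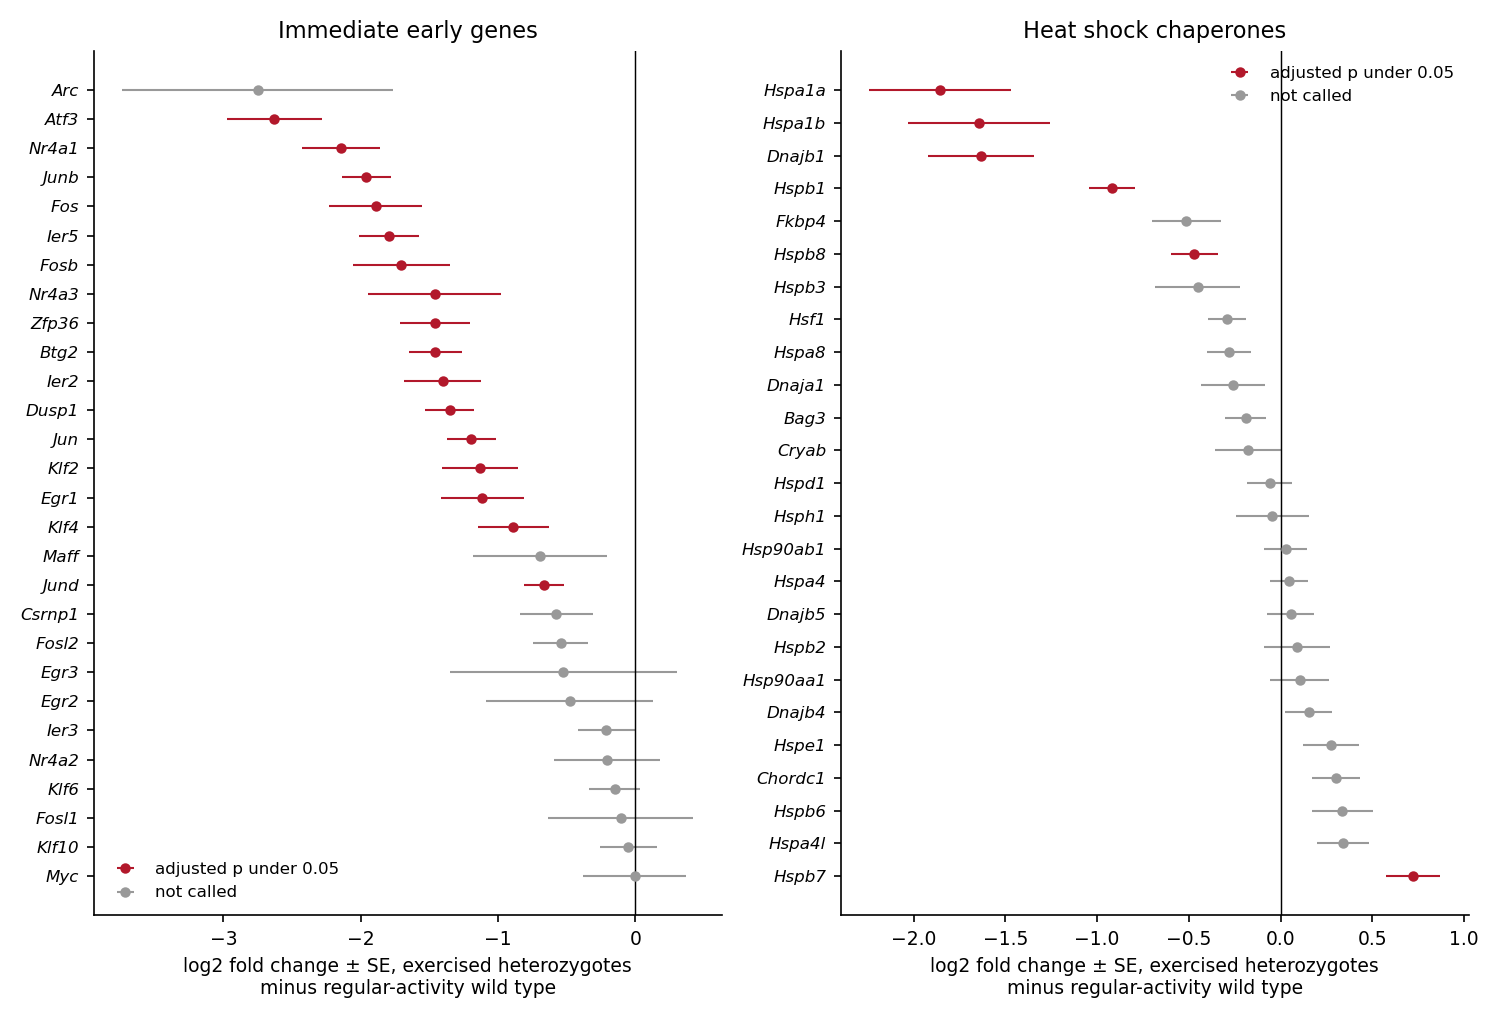
Log2 fold change on the x axis, exercised heterozygotes minus regular-activity wild types, with its SE as a bar, for each tested immediate early gene and heat shock chaperone; red points have an adjusted p under 0.05 and grey points do not. Of 28 immediate early genes 16 are called, all below 0, while chaperones lie on both sides with 5 called lower and 1 higher.

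Transcripts of the mitochondrial genome were higher and nuclear genes of the same respiratory chain lower. Of the 13 protein-coding mitochondrial transcripts, 12 rose (92.3% against 13.1%) and the median was 1.75. The complex I gene mt-Nd6 was 228, 194, 181, 174 and 205 CPM in wild types and 946, 1528, 951, 767 and 1097 CPM in exercised heterozygotes (log2 fold change 2.43 with SE 0.339 and edgeR adjusted p = 3.01e-05). The exercised heterozygotes were above every wild type, as were all exercised wild types (1519, 812, 585, 558 and 792 CPM). The cytochrome oxidase gene mt-Co2 rose by 2.75, mt-Nd4l by 2.58, mt-Atp8 by 2.25 (its call was lost in 2 alternatives with an adjusted p up to 0.357) and the cytochrome b gene mt-Cytb by 1.61 (edgeR adjusted p = 5.68e-06, 0.000647, 0.00308 and 0.000563). The increase was uneven: mt-Co1 rose by 0.88 (edgeR adjusted p = 0.0244, lost in 8 alternatives with an adjusted p up to 0.434), and mt-Co3 was at 1.29 without a call (0.235). In the list the median genotype part was 0.29 and the median exercise part 1.64. With the mitochondrial share as a covariate 5 of the 13 were called and the median was 0.58. That share contains the counts of these same transcripts, so a smaller change follows from how the covariate is built. It is therefore no separate test of their rise.

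In the nuclear oxidative phosphorylation list, 34 of 76 genes were lower and 3 higher (48.7% against 13.1%), with a median of -0.34 and 65 values below 0. Uqcrfs1, the iron-sulphur subunit of complex III, was 975, 974, 942, 1032 and 1009 CPM in wild types and 478, 460.0, 561, 346 and 437 CPM in exercised heterozygotes. The highest exercised heterozygote stood below the lowest wild type (log2 fold change -1.11 with SE 0.148 and edgeR adjusted p = 5.76e-06). Atp5e, the epsilon subunit of ATP synthase, was 215, 189, 163, 217 and 210.0 CPM and 102, 94.7, 125, 68 and 79.5 CPM (log2 fold change -1.08 with SE 0.116 and edgeR adjusted p = 2.02e-07). The complex I genes Ndufs7 and Ndufa7 fell too (log2 fold changes -0.85 and -0.78, edgeR adjusted p = 6.00e-05 and 7.93e-05). For Uqcrfs1, Atp5e and Ndufa7 the exercise part was the larger (-0.85, -0.81 and -0.62). Over the whole list the parts were alike, with a median genotype part of -0.16 and a median exercise part of -0.17. Exercised wild type minus regular-activity heterozygote was called higher for 7 of the 76 genes and lower for 4.

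Fatty acid uptake and oxidation, the main fuel route of the adult heart, had 17 lower and 2 higher of 38 genes (50% against 13.1%, median -0.41). Acads, the short-chain acyl-CoA dehydrogenase, was 269, 249, 271, 304 and 250.5 CPM in wild types and 159, 136, 159.6, 76.4 and 127 CPM in exercised heterozygotes (log2 fold change -1.03 with SE 0.159 and edgeR adjusted p = 3.99e-05). No library overlapped, and exercised heterozygote 4 was lowest. Ech1, of unsaturated fatty acid oxidation, was 1981, 1490.5, 1534, 2073 and 1841 CPM and 1015, 739.6, 865, 326 and 878 CPM (log2 fold change -1.22 with SE 0.187 and edgeR adjusted p = 4.14e-05). The trifunctional protein gene Hadhb and the thioesterase gene Acot1, which has close paralogs, fell with log2 fold changes of -0.86 and -2.01 (edgeR adjusted p = 8.51e-05 and 0.000331). The list's genotype part had a median of -0.28 and its exercise part one of -0.11, and without exercised heterozygote 4 there were 12 lower and 2 higher with a median of -0.31. Genes of the TCA cycle and branched-chain amino acid breakdown had 6 lower and 0 higher of 35 (17.1%, median -0.20), with 2 lower and 1 higher without that library and 3 lower without wild type 4. Glucose uptake and glycolysis had 2 higher and 2 lower of 28 (14.3%, median -0.05). Hk1, a hexokinase that commits glucose to metabolism and is the lesser form in adult muscle, was 166, 207, 164, 175 and 162 CPM in wild types and 300.3, 339, 316, 352 and 306 CPM in exercised heterozygotes (log2 fold change 0.89 with SE 0.115 and edgeR adjusted p = 4.66e-06). All 5 exercised heterozygotes were above every wild type, and Hk1 was 237, 229, 177, 178 and 162 CPM in regular-activity heterozygotes. The platelet-type phosphofructokinase Pfkp rose by 1.24 (edgeR adjusted p = 0.00174), with exercised heterozygote 4 at 199 CPM and the others at 67.9 to 75.1. Pdk1 and Pfkfb1, which sets the level of the glycolytic activator fructose 2,6-bisphosphate, were the 2 lower genes (Pfkfb1 -1.28, edgeR adjusted p = 0.016, lost in 2 alternatives with an adjusted p up to 0.146).

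The intercalated disc list had 7 higher and 3 lower of 25 genes (40% against 13.1%, median 0.16). Ank3, the ankyrin G that anchors sodium channels at the disc, was 60.4, 75.9, 56.9, 65.8 and 61.5 CPM in wild types and 111, 102, 96.4, 114 and 108 CPM in exercised heterozygotes. There was no overlap (log2 fold change 0.73 with SE 0.10 and edgeR adjusted p = 7.37e-06), and Ank3 was 96.8, 119, 89.3, 117 and 101 CPM in exercised wild types. N-cadherin, Cdh2, the main adhesive protein of the disc, rose by 0.46, and Xirp2, an actin-binding protein of the disc, by 1.25 (edgeR adjusted p = 0.00126 and 0.00454, the latter 0.0601 without wild types 2 and 5). The catenin Ctnnd1 (0.75), the scaffold Tjp1 (0.42), the integrin activator Fermt2 (0.36) and the desmosomal membrane protein gene Perp (0.54) were also higher (edgeR adjusted p = 0.00944, 0.0186, 0.0083 and 0.0137). Perp was not called without exercised heterozygote 4 (0.0675) or without wild types 2 and 5. The call of Tjp1 was lost in 7 alternatives with an adjusted p up to 0.338, and that of Fermt2 was lost in 3 alternatives with an adjusted p up to 0.322. Beside Ctnna3 the lower genes were those of plakoglobin (Jup, -0.45) and beta-catenin (Ctnnb1, -0.32), which are 2 of several armadillo proteins of these junctions, with edgeR adjusted p = 0.00588 and 0.00666. Jup was 237, 280.0, 249, 259 and 236 CPM in wild types and 199, 198, 190.1, 168 and 165 CPM in exercised heterozygotes, and its genotype part was -0.02. Its call was lost in 2 alternatives with an adjusted p up to 0.214.

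In the dystrophin complex list 2 of 25 genes were higher and 3 lower (20%, median -0.0). Dmd was the only lower gene with a fold change above 2, and Pomt1, which acts in the glycosylation of dystroglycan, was lower as well (-0.53, edgeR adjusted p = 0.0138). Utrn, the autosomal relative of dystrophin, rose by 0.37 (edgeR adjusted p = 0.0155), and the syntrophin gene Sntb1 by 1.33 (0.0171). Without exercised heterozygote 4, Utrn, Sntb1 and Pomt1 were not called (edgeR adjusted p = 0.0583, 0.0687 and 0.0535). In all, their calls were lost in 6, 6 and 4 alternatives. The sarcomere list had 6 higher and 2 lower of 27 (29.6%, median 0.27, or 0.09 without exercised heterozygote 4). Ldb3, a Z-disc protein, was 1285, 1387, 1347, 1418 and 1247 CPM in wild types and 2045, 1942, 1691, 1748 and 1829 CPM in exercised heterozygotes (log2 fold change 0.47 with SE 0.0840 and edgeR adjusted p = 0.000258). Cardiac troponin T, Tnnt2, rose by 0.61 and desmin, Des, by 0.54 (edgeR adjusted p = 0.000329 and 0.00521). Myoz2 (0.67), Tnnc1 (0.64) and Actn2 (0.28) were also higher (edgeR adjusted p = 0.000622, 0.00124 and 0.038), although the call of Actn2 was lost in 14 alternatives with an adjusted p up to 0.208. The ventricular light chain gene Myl3 (-0.53) and Tcap, of the Z-disc (-0.60, lost in 12 alternatives with an adjusted p up to 0.762), were lower (edgeR adjusted p = 0.006 and 0.0388).

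Ion channels and calcium handling genes were called at a share below that of all genes, with 3 higher and 1 lower of 40 (10%, median -0.06). Kcnd2, a channel of the transient outward potassium current that shortens the rodent action potential, was the lower gene. It was 50, 70.3, 50.9, 43.3 and 45.5 CPM in wild types and 35.3, 28.6, 26.3, 16.1 and 27.5 CPM in exercised heterozygotes, without overlap (log2 fold change -0.96 with SE 0.194 and edgeR adjusted p = 0.00106). Its genotype part was -0.71 (edgeR adjusted p = 0.00425) and its exercise part -0.25. Casq2, the calcium buffer of the sarcoplasmic reticulum, was 1244, 967, 944, 1119 and 1108 CPM and 1488, 1454, 1436, 1701 and 1444 CPM (log2 fold change 0.48 with SE 0.117 and edgeR adjusted p = 0.00505). The other higher genes were those of the calcium release channel, Ryr2 (0.35), and the sodium-calcium exchanger, Slc8a1 (0.31), with edgeR adjusted p = 0.0198 and 0.049. The call of Ryr2 was lost in 7 alternatives with an adjusted p up to 0.452 and that of Slc8a1 lost in 15 alternatives with an adjusted p up to 0.932, and Casq2 was not called without wild types 2 and 5 (0.0527).

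Matrix, fibroblast, macrophage and wall stress genes depended on 1 library. Of 47 collagen and matrix genes 3 were higher and 1 lower (8.51% against 13.1%), with a median of 0.39, a genotype part of 0.63 and an exercise part of -0.23. The higher genes were Pcolce, Timp1 and the protease Mmp23 (1.29, edgeR adjusted p = 0.0387, 0.619 without exercised heterozygote 4), and the lower one was Serpinh1. Without exercised heterozygote 4 the median was -0.20, and it went from 0.29 to -0.33 for fibroblast markers, from 0.66 to 0.05 for macrophage markers and from 0.54 to 0.22 for fetal and wall stress genes. The mean log2 CPM of the matrix list was 3.05, 3.69, 3.52, 5.25 and 3.56 in exercised heterozygotes 1 to 5 and 3.55 to 3.69 in wild types. Regular-activity heterozygotes lay at 4.20 to 4.63, so 4 of the 5 exercised heterozygotes were below all of them and 1 was above. In bulk RNA, fewer cells of a type and less RNA per cell cannot be told apart. The macrophage list ran from -0.03 to 1.13 in 4 exercised heterozygotes, 2.87 in exercised heterozygote 4, 0.50 to 1.35 in wild types and 1.89 to 2.83 in regular-activity heterozygotes. Exercised heterozygote 4 is also the only library of its group with a high Xist level. With a term for high or low Xist in the fit the median was 0.34 for the matrix list and 0.65 for the macrophage list.

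Single genes stood apart in the same library. Myh7, the slow myosin heavy chain of the fetal heart, was 828, 836, 338, 579.7 and 956 CPM in wild types and 1139.5, 808, 631, 8369.7 and 728 CPM in exercised heterozygotes 1 to 5, and was not called (log2 fold change 1.72, edgeR adjusted p = 0.0528). The natriuretic peptide gene Nppa was 11.1, 22.9, 109, 16.1 and 69.1 CPM and 127, 68, 43.7, 1329 and 164 CPM (log2 fold change 2.92, edgeR adjusted p = 0.0569), and Nppb had 0.09 (0.919). Nppa is also 1 of 11 listed atrial myocyte markers. Their mean log2 CPM varied widely, from 1.10 to 5.05 in wild types and from 2.33 to 5.27 in exercised heterozygotes. It was 3.67 in exercised heterozygote 4, and a part of atrial RNA in the Nppa values was not tested. Postn, the periostin of activated fibroblasts, was 3.94, 8.85, 4.62, 116 and 5.98 CPM in exercised heterozygotes (log2 fold change 1.83, edgeR adjusted p = 0.0734, -0.42 without exercised heterozygote 4). Tgfb2, a ligand that drives fibrosis, was higher in the other 4 as well, at 8.10, 4.62, 5.10, 5.55 and 6.15 CPM in wild types and 12.1, 18.9, 9.72, 70.9 and 11.2 CPM in exercised heterozygotes (log2 fold change 2.06 with SE 0.382 and edgeR adjusted p = 0.000577). Map1a, of microtubules, was 2.31, 7.56, 3.22, 2.60 and 2.66 CPM and 4.44, 41.5, 27.6, 80 and 25.8 CPM, and exercised heterozygote 1 lay in the wild-type range (log2 fold change 3.29 with SE 0.723 and edgeR adjusted p = 0.00319). In the wall stress list 4 of 27 genes were higher and 1 lower (18.5%), and without exercised heterozygote 4 it was 1 higher and 3 lower. The higher genes were Xirp2, Timp1, the galectin Lgals3 (2.34, edgeR adjusted p = 0.0369, 0.582 without exercised heterozygote 4) and the ubiquitin hydrolase Uchl1 (1.49, 0.0143, 0.264 without it), and the lower one was Atf3. The calls of Lyz2, Lgals3, Mmp23, Timp1 and Uchl1 were lost in 15, 12, 11, 9 and 5 alternatives. That of Lyz2 was also lost with any 1 wild type left out. Lyz2, of macrophages, rose by 1.60 with 63.3 CPM in exercised heterozygote 4 (edgeR adjusted p = 0.0484, 0.588 without that library). Serpinh1, a collagen chaperone, went the other way, from 185, 189, 165, 293 and 217 CPM to 131, 133, 124, 105 and 121 CPM without overlap (log2 fold change -0.77 with SE 0.138 and edgeR adjusted p = 0.000253).

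**Figure D4:**
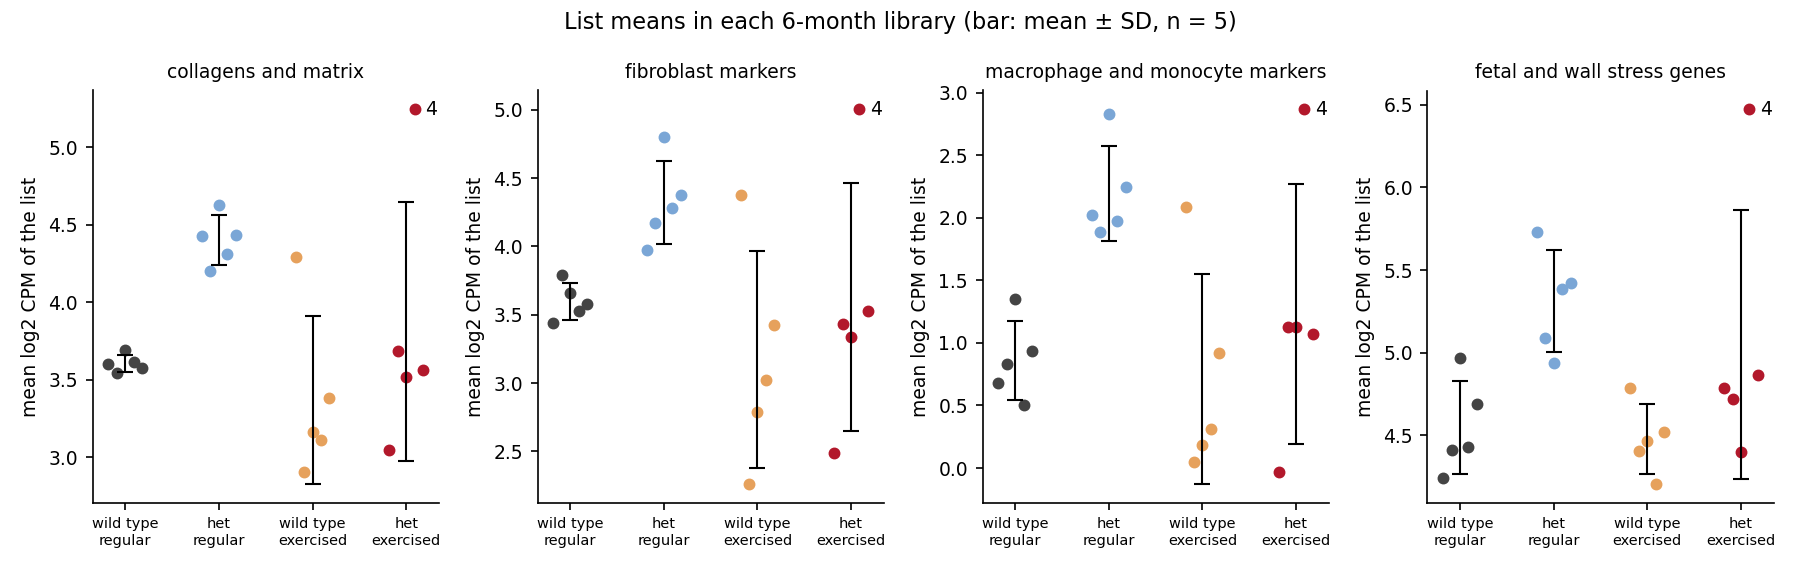
Mean log2 CPM on the y axis over the tested members of 4 gene lists in each 6-month library, with bars for the mean ± SD (n = 5) of each group and the number 4 beside exercised heterozygote 4. That library is at 5.25 for collagens and matrix, 2.87 for macrophage markers and 6.47 for fetal and wall stress genes, above the other 4 exercised heterozygotes in each panel.

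Of 53 cytosolic ribosomal protein genes 20 were lower and 0 higher (37.7% against 13.1%, median -0.27, with 11 lower without wild type 4 and 13 without exercised heterozygote 2), among them Rpl13 at 236, 215, 198, 254 and 232 CPM in wild types and 145, 136, 142, 104 and 106 CPM in exercised heterozygotes (log2 fold change -0.84 with SE 0.107 and edgeR adjusted p = 4.31e-06). These genes have many processed copies that can share reads. Of 23 replication-dependent histone genes, whose messages end in a stem-loop in place of a poly(A) tail, 6 were lower and 0 higher (26.1%, median -0.80), such as Hist1h4h (-1.31) and Hist1h3e (-1.25, edgeR adjusted p = 6.01e-06 and 0.000647). Among 17 small and nuclear-retained RNAs 6 were lower and 1 higher (41.2%, median -0.38). Rn7sk, the RNA that holds back the elongation factor P-TEFb, was 10179, 9710.4, 8940.2, 9519 and 11694 CPM in wild types and 4451, 3610.0, 4322, 3799 and 3798 CPM in exercised heterozygotes (log2 fold change -1.32 with SE 0.118 and edgeR adjusted p = 6.98e-09). With Scarna13 (-1.42, edgeR adjusted p = 8.60e-08), it had one of the smallest p values of the table, and its exercise part was -1.20. The library measures above moved with these lists, since the small RNA share was lower and the ribosomal RNA share higher in every exercised heterozygote, and their part in these values was not tested.

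Signalling lists had mixed calls. In the unfolded protein response list 4 of 27 were higher and 0 lower (14.8%, near the 13.1% of all genes): the sensor Atf6 (0.68), the disulphide isomerase Pdia3 (1.17), the chaperone Dnajb9 (0.71) and calreticulin, Calr (0.67), with edgeR adjusted p = 1.53e-05, 5.01e-05, 0.00241 and 0.00683. Atf6 was 219, 212, 233, 244 and 196 CPM in wild types and 330.2, 331, 306, 444 and 361 CPM in exercised heterozygotes, without overlap. In the p53 target list 5 of 25 were higher and 3 lower (32%). There were 3 and 2 without exercised heterozygote 4, and 2 and 1 with the mitochondrial share as a covariate. Mdm2, which degrades p53, was higher (0.50, edgeR adjusted p = 0.00218) and the growth arrest genes Btg2 (-1.46, 6.01e-06) and Gadd45b (-0.99, 0.00409) lower. Proteasome and autophagy genes had 7 lower and 1 higher of 26 (30.8%), with the proteasome subunit Psmb5 at -0.70 (edgeR adjusted p = 0.00196). Adrb1, the main beta-adrenergic receptor of the myocyte, was 24.8, 30.2, 29, 22.1 and 33.1 CPM in wild types and 12.6, 15.1, 16.9, 8.75 and 16 CPM in exercised heterozygotes, without overlap (log2 fold change -1.01 with SE 0.163 and edgeR adjusted p = 7.51e-05). It was among 5 lower and 3 higher of 32 genes of pathological hypertrophy signalling (25%). Of 27 genes of physiological growth and insulin signalling 3 were higher and 2 lower (18.5%): Irs4, Igf1 (1.56) and Gsk3b (0.49) against Cited4, a regulator known from trained hearts (-1.32), and Irs2 (-1.43), with edgeR adjusted p = 0.00953, 0.00093, 0.000581 and 0.0023 for the last 4. Cyr61, a matricellular target of YAP, and the NF-kappaB subunit gene Relb fell (log2 fold changes -1.60 and -1.03, edgeR adjusted p = 3.21e-05 and 0.000557). Their lists did not fall as a whole. Hippo and YAP targets had 3 higher and 2 lower of 21 (23.8%, median 0.07). Inflammation and NF-kappaB genes had 0 higher and 2 lower of 25 (8%, below the 13.1% of all genes, median 0.07). The antioxidant gene Gpx3 rose by 1.33 and was not called without exercised heterozygote 4, nor was Igf1 (edgeR adjusted p = 0.0102 against 0.0573 for Gpx3, and 0.0569 without that library for Igf1).

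**Figure D5:**
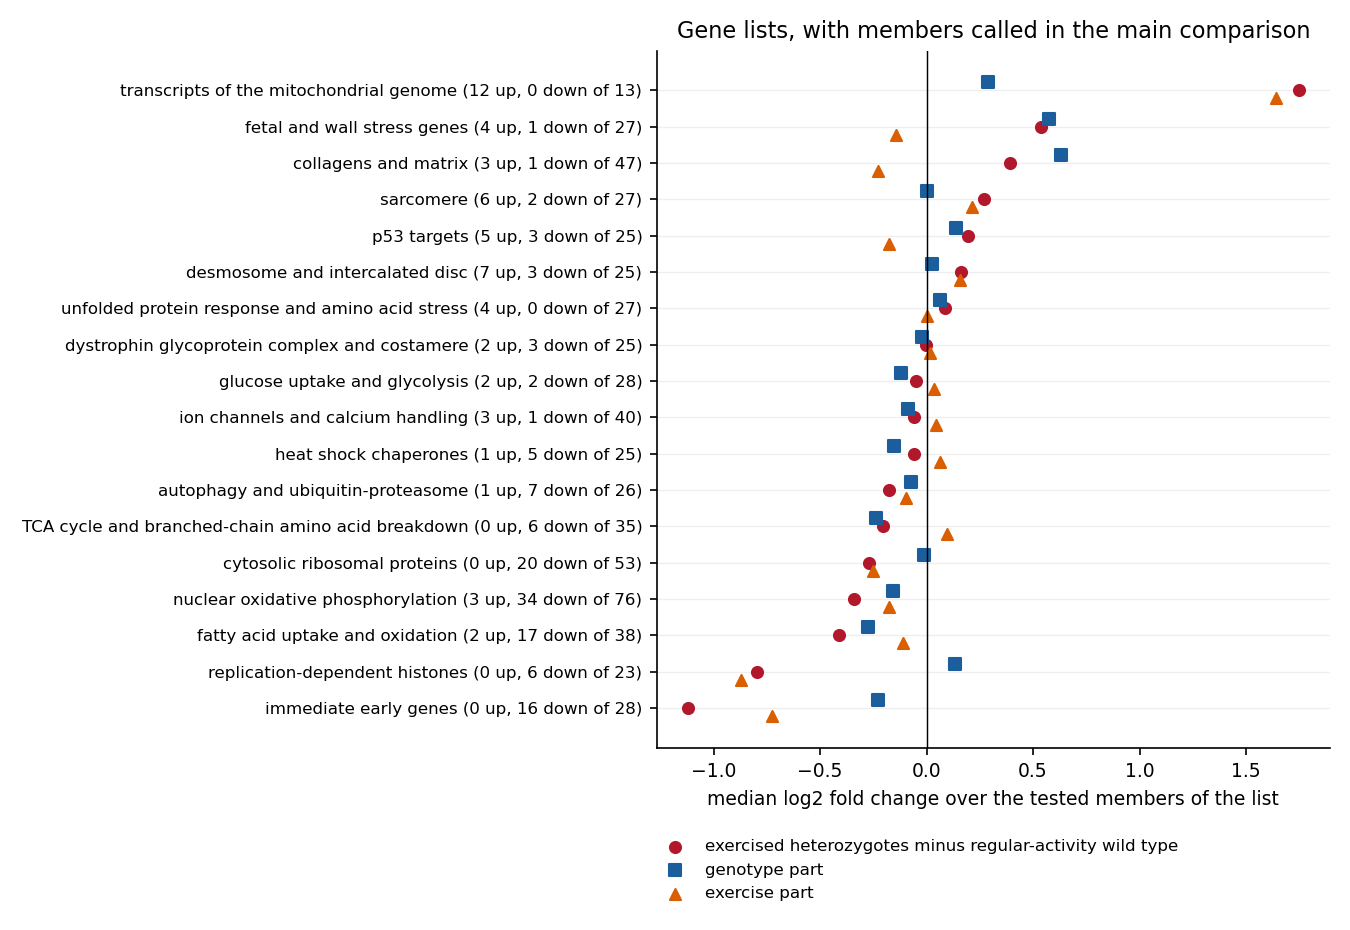
Median log2 fold change on the x axis over the tested members of 18 gene lists, for the whole difference (circles), its genotype part (squares) and its exercise part (triangles), with the number of members called higher and lower in each label. Mitochondrial transcripts (1.75), immediate early genes (-1.12) and histones (-0.80) have the largest medians shown and their exercise parts lie on the same side, while the matrix (0.39) and wall stress lists (0.54) have genotype and exercise parts on opposite sides.

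Base composition and exon length of the transcripts, and the span of the genes, moved with the differences. Called lower genes had a median GC content of 53.8% and called higher genes one of 46.2%, against 49.5% for all genes tested, and a median gene span of 12.4 and 40.5 kb against 19.7 kb. The median exon length was 3.18 kb for called lower and 5.81 kb for called higher genes, against 4.05 kb for all genes tested. Across genes, which are not independent replicates, Spearman's rho of the log2 fold change with GC content was -0.29, with -0.37 for the exercise part and -0.0 for the genotype part. After trends on GC content and length were removed in each library, 1301 of the 2046 genes (63.6%) were called in the same direction. With the mitochondrial share as a covariate it was 559 (27.3%), with a share that was higher in every exercised heterozygote than in every wild type. Of the genes with a larger genotype part, Dmd, Ctnna3, Exoc2, Immp2l, Ndnf, Pcolce, Irs4, Amy1, Dpysl3 and Jpt1 were called under all of the alternatives tried. Dpyd, Acot7, Rtn2, Pdk1, Irs2, Mdm2, Gadd45b, Dnajb9, Calr, Ctnnb1, Ctnnd1, Myl3, mt-Nd4l and mt-Cytb lost their call only with the mitochondrial covariate (edgeR adjusted p from 0.0564 for Rtn2 to 0.444 for Gadd45b). The counts of mt-Nd4l and mt-Cytb are themselves part of that covariate. With it, the lower genes were 22 of 76 for nuclear oxidative phosphorylation, 8 of 38 for fatty acid oxidation, 0 of 35 for the TCA cycle list, 12 of 53 for ribosomal proteins and 2 of 25 for chaperones. Without wild types 2 and 5, the disc list had 3 higher genes and the wall stress list 0, and 13 ribosomal protein genes were lower.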

How the data were processed

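Total RNA of cardiac myocytes was sequenced with ribosomal depletion and strand-specific paired-end libraries, per the labels' protocols. The authors deposited 1 table of raw read counts for 30 libraries. Reads were trimmed with Trim Galore, aligned with HISAT2 to mm10 and counted with featureCounts, per the submitters' processing notes; the annotation release and the strand setting are not given in the sources used here, so reads of a gene and an antisense partner may not be told apart. The table held 52573 entries, of which 23 were spike-in controls and were left out, and 26 gene symbols turned into dates were restored from their identifiers.

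Counts were fitted with edgeR 4.0.16 in R 4.3.3 (quasi-likelihood F test, robust, TMM scaling, low-count filter over 6 groups, 15587 genes kept) over all 30 libraries with 1 term per group and 24 residual degrees of freedom. A gene was called at a Benjamini-Hochberg adjusted p under 0.05. SE is the size of the log2 fold change over the root of its F value, and CPM is per 1e+06 counts of the scaled library size. Counts were simulated for 15266 genes, with known changes of 1.5-fold in 67, 2-fold in 67 and 4-fold in 66 of them. Of the 4-fold changes 98.5% were recovered, and 7 of 15066 unchanged genes were called. Positions and gene spans come from GENCODE M21 (GRCm38), which matched 52403 of the identifiers. Alternatives were other scalings, filters and models (limma 3.58.1, DESeq2 1.42.0), libraries left out, and terms for replicate number, Xist, mitochondrial share, and GC content and length.

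The members and gene lists were chosen with earlier results of these data known: 1210 symbols in 47 lists, of which 1140 genes were tested. Genes are named where they have the largest changes (up to 12 in each direction), the smallest p of a list (up to 4), a genotype call in regular-activity mice at 6 months, a genotype call at 3 months in a protein-coding gene, or a call for the genotype part. Jup, Ctnnb1, Ctnnd1, Tjp1, Fermt2, Perp, Sntb1, Actn2, Tcap, Myh7, Nppb, Postn, Lgals3, Igf1, Egr1, Jund, Hspa1b, Hspb8, mt-Cytb, mt-Co1, mt-Co3, Decr1, Etfdh and Fdft1 were named after their values were seen.
A few results on items withheld from the text are not reported here.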

Additional observations from a re-analysis of the deposited data

Results flagged for a closer look

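In groups of 5, a library was marked when its gap to the nearest other library was more than 0.71 of the group's range, which chance alone gives in about 1 of 20 groups. Of 346 sets of 5 values, 37 were marked, 25 of them for exercised heterozygote 4, 10 for wild types and 2 for other exercised heterozygotes. No cause was tested.

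Exercised heterozygote 4 stood above the other 4 of its group in wall stress and matrix genes. It had 8369.7 CPM of Myh7 (the others 631 to 1139.5), 4451 of Xirp2 (1095 to 1396), 6482 of Des (3492 to 3803), 116 of Postn (3.94 to 8.85), 63.3 of Lyz2 (6.50 to 12.5), 19.6 of Mmp23 (2.43 to 3.94), 17.4 of Lgals3 (0.886 to 2.14) and 41.8 of Uchl1 (5.53 to 9.54). It was also high for Pfkp at 199 CPM (67.9 to 75.1), Casq2 at 1701 (1436 to 1488), Ctnnb1 at 334 (275 to 289) and Lman1l at 6.15 (2.51 to 3.03). Genes of mitochondrial and lipid metabolism and the glycolysis regulator Pfkfb1 were lowest in it, with 326 CPM of Ech1 (739.6 to 1015), 158 of Decr1 (289 to 349), 139 of Ndufa7 (183 to 194), 25.7 of Acot7 (41.4 to 46.2), 21.5 of Fdft1 (50.1 to 60.1) and 3.90 of Pfkfb1 (10.5 to 15.4). Mean log2 CPM of its lists was 6.47 for wall stress genes (4.40 to 4.87 in the others), 3.27 for Wnt signalling (2.34 to 2.60), 5.51 for Hippo and YAP targets (4.92 to 5.03) and 4.62 for p53 targets (4.13 to 4.18). It was 6.84 for ion channels (7.20 to 7.30), 7.26 for the TCA cycle and branched-chain amino acid list (7.81 to 8.02) and 4.74 for circadian genes (4.99 to 5.06).

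Among other exercised heterozygotes, Cyr61 was lowest in library 1 at 115 CPM (the others 169 to 194) and Ryr2 in library 2 at 2411 CPM (2740.3 to 2887). Wild type 1 was highest for Dmd at 342 CPM (291 to 298), for mt-Co2 at 380.3 (245 to 267) and for Fermt2 at 122 (101 to 107), and lowest for Gm15487 at 1.06 (9.10 to 19.5). Wild type 2 was highest for Map1a at 7.56 CPM (2.31 to 3.22). Wild type 3 had the highest total of counts, 23.1 in units of 1e+06 (18.8 to 19.6), and of Postn at 10.6 CPM (6.82 to 7.34), and the lowest Jpt1 at 54.8 CPM (72.6 to 78.7). Wild type 4 had the lowest mean of epigenetic regulators at 3.94 (4.16 to 4.22), and wild type 5 the highest of small and nuclear-retained RNA at 5.58 log2 CPM (5.13 to 5.20).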

How the results depend on the processing

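The count of higher genes was 542 with no low-count filter, 1448 with limma-voom, 413 without wild types 2 and 5, 322 with the mitochondrial share as a covariate and 436 at a threshold of 0.01, against 923. Lower genes were 674 without wild types 2 and 5, 316 with that covariate and 573 at 0.01, against 1123. Genes higher for the genotype part were 412 with limma-voom, 223 with DESeq2's Wald test, 47 without wild types 2 and 5 and 30 at 0.01, and lower ones 565, 213, 74 and 33 in the same order. Genes higher for the exercise part were 735 with the mitochondrial covariate and 1022 at 0.01, and lower ones 551 and 889, or 2473 with limma-voom. With 1 library left out in turn, the comparison had 685 to 793 higher and 869 to 1151 lower genes, the genotype part 51 to 204 and 55 to 232, and the exercise part 1360 to 1674 and 1299 to 1767. Same-numbered libraries did not deviate together (correlations -0.063 to 0.027, 0 of 5 over 0.1, 0 of 5 best with their own number), and the replicate block gave 810 higher and 1014 lower genes, 63 and 85 for the genotype part and 1581 and 1441 for the exercise part. Direction turned for mt-Co1 (-0.23) and mt-Co3 (-0.77) with the mitochondrial covariate, for Nppb with limma-voom (-0.31), without wild type 2 or 3 (both -0.03), without exercised heterozygote 4 (-0.42) and without wild types 2 and 5 (-0.065), for Postn with limma-voom (-0.028) and without exercised heterozygote 4 (-0.42), for Slc8a1 with GC and length trends removed (-0.025), for Gm15487 with limma-voom (0.011) and without wild types 2 and 5 (0.17), and for Rps2-ps6 without those 2 (0.021). The counts of mt-Co1 and mt-Co3 are part of the mitochondrial share, so that covariate takes up part of their own change. The cause of the other turns was not tested. With 1 library left out, Nppb ranged from -0.42 to 0.30 and Postn from -0.42 to 2.07. Of 112 called genes named here, 59 kept their call in every alternative run for them, 18 lost it only with the mitochondrial covariate and 25 lost it in 3 or more.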
